A study of Mus musculus with 15 samples.

Results

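A set of 10 genes for secreted and surface proteins of inflammation was followed through mouse embryonic fibroblasts (MEFs) that lacked telomerase RNA and the Wrn helicase and carried either mutant or wild-type p53. They were 2 CC chemokines (Ccl2 and Ccl7), 3 CXC chemokines (Cxcl1, Cxcl5 and Cxcl12), 3 cytokines (Il6, Lif and Csf1) and 2 adhesion molecules (Icam1 and Vcam1). They were taken by gene symbol and were 10 of the 54495 genes in the deposited table. An expression of at least 1 FPKM (sequenced fragments per kilobase of a gene's length and per library unit set by the authors) in at least 2 of the 15 libraries was required for testing. That filter passed 13562 genes, 9 of the 10 among them. Il6 did not pass, since it reached 1 FPKM in 0 of the 15 libraries.

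All fibroblasts came from embryos of day 13.5 and lacked mTR, which encodes telomerase RNA, and Wrn, a RecQ helicase whose loss causes Werner syndrome in humans. Fibroblasts named TM had the genotype mTR-/-Wrn-/-p53N236S/N236S, a homozygous amino acid change (N236S) in p53. Fibroblasts named DM had the genotype mTR-/-Wrn-/-p53WT and so carried wild-type p53 beside the same deletions. Telomeres of telomerase-deficient mice shorten from one generation of breeding to the next, and G1, G3 and G5 name those generations. There were 2 G1TM and 2 G1DM libraries, 3 G3TM and 2 G3DM libraries, and 3 G5TM and 3 G5DM libraries. Cells were grown in DMEM with 10% serum at 37 °C, 5% CO2 and 3% O2, and polyA RNA was sequenced. The series asked how mutant p53 alters ageing features of cells that model Werner syndrome. No group with telomerase and Wrn intact entered any comparison, and the wild-type and p53-mutant control MEFs of the design are not analysed here. The labels do not say whether libraries of one group came from separate embryos or cultures, so p-values measure only the spread between these samples.

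Senescent fibroblasts release chemokines, cytokines and proteases, known together as the senescence-associated secretory phenotype. Transcription of many of these genes is driven by NF-κB and C/EBPβ, and wild-type p53 is known to restrain part of the programme. Ccl2 and Ccl7 attract monocytes, Cxcl1 and Cxcl5 attract neutrophils, and Cxcl12 retains and guides haematopoietic and other cells. Icam1 and Vcam1 hold leukocytes on stromal and endothelial cells through integrins.

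The promoters of 6 of the 10 genes were found in a RefSeq-derived table of the mouse genome (build GRCm38.p6), as windows of 300 bases around the annotated start. Of these, 4 are printed 5′ to 3′ because they set the gene with the steadiest fall in TM cells (Icam1) and a gene lower in G3TM (Lif) beside 2 that were barely expressed (Cxcl1 and Il6). Icam1 (chr9:21015690-21015989, + strand) and Lif (chr11:4257318-4257617, + strand) are followed by Cxcl1 (chr5:90890995-90891294, + strand) and Il6 (chr5:30012864-30013163, + strand). Capitals mark matches to the κB consensus, the DNA element bound by NF-κB.
Icam1: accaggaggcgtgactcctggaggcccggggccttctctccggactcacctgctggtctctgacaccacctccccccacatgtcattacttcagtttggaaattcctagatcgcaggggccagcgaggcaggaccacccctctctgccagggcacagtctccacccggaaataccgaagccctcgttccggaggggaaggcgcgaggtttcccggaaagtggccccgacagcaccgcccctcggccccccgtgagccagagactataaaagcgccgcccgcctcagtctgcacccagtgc
Lif: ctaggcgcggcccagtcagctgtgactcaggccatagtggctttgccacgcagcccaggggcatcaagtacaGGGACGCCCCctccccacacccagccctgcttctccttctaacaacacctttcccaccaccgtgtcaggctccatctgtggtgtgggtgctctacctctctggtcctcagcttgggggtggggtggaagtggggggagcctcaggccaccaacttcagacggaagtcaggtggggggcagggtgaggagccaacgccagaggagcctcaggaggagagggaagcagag
Cxcl1: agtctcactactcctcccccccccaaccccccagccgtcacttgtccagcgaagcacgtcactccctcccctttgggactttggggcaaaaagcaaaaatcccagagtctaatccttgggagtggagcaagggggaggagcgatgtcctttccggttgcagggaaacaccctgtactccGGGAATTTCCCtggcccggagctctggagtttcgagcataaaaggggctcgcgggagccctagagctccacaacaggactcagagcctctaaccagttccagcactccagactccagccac
Il6: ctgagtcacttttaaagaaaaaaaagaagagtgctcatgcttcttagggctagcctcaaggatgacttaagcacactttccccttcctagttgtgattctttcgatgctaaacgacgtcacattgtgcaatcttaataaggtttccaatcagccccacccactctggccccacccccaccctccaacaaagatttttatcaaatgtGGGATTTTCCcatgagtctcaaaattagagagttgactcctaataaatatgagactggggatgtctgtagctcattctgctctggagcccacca

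Both strands were searched for the κB consensus GGGRNNYYCC, for TGANTCA (the AP-1 element) and for TATAAA. Here R is A or G, Y is C or T, and N is any base. Sites that differ from these patterns, in Icam1 or elsewhere, were not counted. The κB consensus matched in Csf1, Il6, Lif and Cxcl1, where 2 matches on opposite strands overlapped, and not in Icam1 or Cxcl12. Of 32851 promoters of the same length, 8.46% held such a match. The AP-1 element was found in Il6 and Lif, against 7.81% of all promoters. TATAAA was found in Icam1 alone of the 6 genes, against 13.6% of all promoters. These matches are descriptions of letters in a window, and no match says only that the letters were not in it.

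The genotype check and the depth were as follows. Cdkn1a, a direct p53 target that encodes p21, lay at 4.22 to 29.6 FPKM in TM libraries and at 86.2 to 216 FPKM in DM libraries. Wrn lay at 0.0447 to 0.599 FPKM and Terc (mTR) at 0 to 0.109 FPKM in all 15, levels that on their own do not show how much transcript remained. Reads recovered from the table numbered 17448588 to 29571111 per library. Of 12 fibroblast markers, all passed the filter, and Col1a1 measured 973 to 2158 FPKM in every library, while Dcn lay at 0.838 to 29.2 FPKM and Lum at 0.914 to 34.8 FPKM. In G5TM, 6 of the 12 were lower and 0 higher than in G5DM, against 28.4% lower and 30.3% higher of all genes. Relative to G1TM, 8 were lower and 1 higher, against 23.5% lower and 26% higher of all genes. The part of these markers in the results below was not tested. In RNAs outside the set, the 6 G3TM and G5TM libraries formed a class apart from the remaining 9. Rpl12, a ribosomal protein gene, lay at 300.4 to 610 FPKM in the 6 and at 3.84 to 6.77 FPKM in the 9. The mitochondrial mRNA mt-Co1 lay at 839 to 1692 FPKM in the 6 and at 3873 to 4916 FPKM in the 9. TM against DM in G3 and G5, and G3 or G5 against G1 in TM, span this division, and there genotype or generation cannot be told apart from it. The comparison of genotypes in G1 and those of generations among DM cells set only libraries of the 9 against each other. Their filter, estimate of spread and p-values still drew on a fit of all 15. Sex-linked genes placed all G3TM libraries with males and all G3DM and G1TM libraries with females. In G3, sex and genotype therefore cannot be told apart either, nor can sex and generation in G3 against G1 in TM. G1DM replicate 1, G5DM replicates 2 and 3 and G5TM replicate 1 were also placed with males. The other libraries of those groups were placed with females. Sex was thus uneven in the remaining comparisons as well. No fit took account of sex, and its part there was not tested.

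Differences between groups were tested with limma on log2(FPKM + 1), two-sided, with p-values adjusted by the Benjamini-Hochberg method over all 13562 genes. A gene was called changed at an adjusted p under 0.05. Differences are on the log2(FPKM + 1) scale, which understates the change of genes with low levels. In G1, 0 of the 9 tested genes were called between TM and DM, against 1.17% of all genes. Icam1 and Lif were the 2 with an unadjusted p under 0.05 there, and voom on recovered reads called 0 as well. In G3, 4 of 9 were called, 1 higher and 3 lower in TM, against 32% of all genes (18% higher and 13.9% lower). In G5, 5 of 9 were called, 1 higher and 4 lower in TM, against 58.7% of all genes (30.3% higher and 28.4% lower). The shares called in G3 and G5 were thus near the background of the whole table, so the counts alone set the 10 genes apart in neither generation. The median log2 difference of the 9 genes was 0.29 in G1, −0.78 in G3 and −0.46 in G5, while the median over all tested genes was 0.02, 0.01 and 0.02 in the same order. Groups this small often separate: with no overlap, TM lay higher for 26.4% and lower for 23% of all tested genes in G1. Those shares were 31.6% and 28.2% in G3, and 29.6% and 28.3% in G5.

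**Figure D1:**
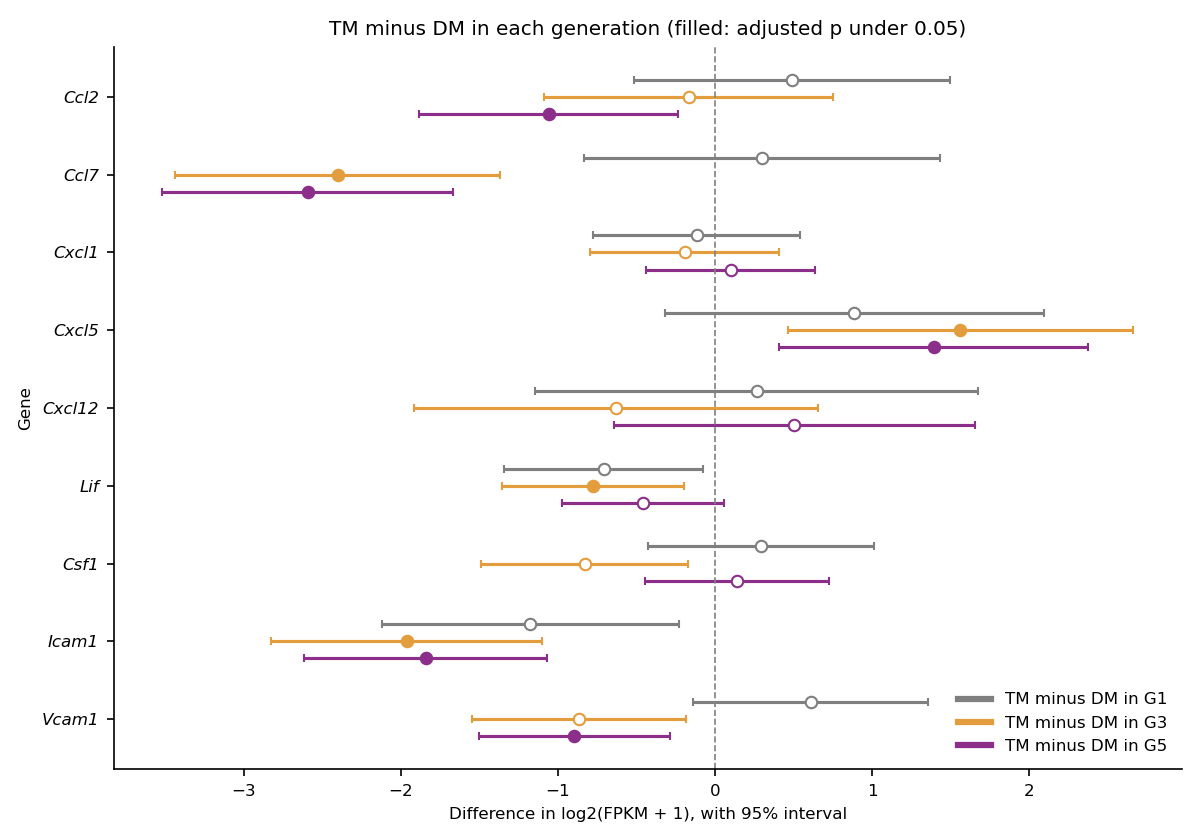
TM minus DM difference of each tested gene on the log2(FPKM + 1) scale (horizontal axis), with 1 mark per generation and bars for the 95% confidence interval. Icam1 and Ccl7 sit far below 0 in G3 and G5, Cxcl5 sits above 0, and Cxcl1 lies near 0 in all 3 generations.

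Ccl7, which encodes the monocyte chemoattractant MCP-3, fell in TM cells of G3 and G5. On the log2(FPKM + 1) scale it had the largest differences of the 9 tested genes there. That scale compresses low levels such as those of Icam1. Icam1 averaged 0.821 FPKM in G5TM and 6.24 FPKM in G5DM, and Ccl7 averaged 17.6 and 123 FPKM in the same order. The ranking of Icam1 and Ccl7 thus depends on the scale. Ccl7 lies on chromosome 11 (82045712 to 82047525, + strand), next to Ccl2. Ccl7 measured 57.4 and 48.8 FPKM in G1TM libraries, against 29.4 and 62.2 FPKM in G1DM libraries. In G3, Ccl7 was 15.2, 8.06 and 15.4 FPKM in TM libraries, against 50.6 and 96.3 FPKM in DM libraries. In G5, Ccl7 was 22.6, 17.6 and 12.5 FPKM in TM libraries, against 64.4, 213 and 92.0 FPKM in DM libraries. The genotypes overlapped in G1 and were fully separated in G3 and in G5. The difference was 0.30 ± 0.53 in G1 (SE, adjusted p = 0.93), with a 95% interval of −0.84 to 1.43. It was −2.40 ± 0.48 in G3 (SE, adjusted p = 0.0028) and −2.59 ± 0.43 in G5 (SE, adjusted p = 0.00035). The G5 call held under all 22 alternatives, while the G3 call was lost without G3DM replicate 2 (adjusted p = 0.0534).

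The difference between the genotypes in Ccl7 was itself larger in G5 than in G1. The interaction, TM minus DM in G5 less TM minus DM in G1, was −2.89 ± 0.68 (SE, adjusted p = 0.0156). This was 1 of 2 of the tested genes with a called interaction in G5, against 19.8% of all genes (8.33% lower). The call was lost without G1DM replicate 1 (adjusted p = 0.0731) and without G1TM replicate 1 (adjusted p = 0.0735). For G3 the interaction was −2.70 ± 0.71 (SE, adjusted p = 0.0673), and 0 of 9 genes were called, against 2.42% of all genes. There 3 genes (Ccl7, Vcam1 and Csf1) had an unadjusted p under 0.05, and voom called 0. Without G3TM replicate 1, G5DM replicate 1 or G5DM replicate 2, the G3 interaction of Ccl7 passed (adjusted p = 0.0439, 0.0306 and 0.0352), as it did with a filter at 5 FPKM (0.0488) and in a fit of the compared groups alone (0.0451).

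Ccl2, which encodes MCP-1, the ligand of Ccr2 and the closest relative of Ccl7 in the set, followed it only in part. Ccl2 (chromosome 11, 82035571 to 82037453, + strand) measured 26.6 and 22.1 FPKM in G1TM libraries, against 10.4 and 27.5 FPKM in G1DM libraries. In G3, Ccl2 was 24.9, 24.1 and 22.2 FPKM in TM libraries, against 19.2 and 37.2 FPKM in DM libraries. In G5, Ccl2 was 38.7, 30.3 and 27.1 FPKM in TM libraries, against 44.2, 121 and 56.6 FPKM in DM libraries. TM libraries held a narrow range in every generation, and they lay below every DM library in G5 alone. The difference was 0.49 ± 0.47 in G1 (SE, adjusted p = 0.802) and −0.17 ± 0.43 in G3 (SE, adjusted p = 0.8). In G5 it was −1.06 ± 0.38 (SE, adjusted p = 0.0293). That call rested on single libraries: the adjusted p was 0.153 without G5DM replicate 2, 0.0659 without G5TM replicate 2 and 0.089 without G5TM replicate 3. The interaction of Ccl2 in G5 was −1.55 ± 0.60 (SE, adjusted p = 0.0797), and it passed without G1DM replicate 2 (−2.21, adjusted p = 0.0361), without G5DM replicate 1 (−1.84, adjusted p = 0.0236) and with quantile normalization (−2.12, adjusted p = 0.0483).

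The level of Ccl7 relative to its neighbour divided the libraries. Both values are per length, and the ratio of Ccl7 to Ccl2 was chosen after the values were seen, so it is given as a description. It was 2.15 and 2.21 in G1TM libraries, against 2.84 and 2.26 in G1DM libraries. In G3 it was 0.611, 0.334 and 0.692 in TM libraries, against 2.64 and 2.59 in DM libraries. In G5 it was 0.583, 0.581 and 0.460 in TM libraries, against 1.46, 1.76 and 1.63 in DM libraries. The ratio thus lay below 1 in each library of G3TM and G5TM and above 1 in each of the other 9. Ccl7 itself, at 8.06 to 22.6 FPKM in the 6 and 29.4 to 213 FPKM in the 9, was the one tested gene of the set with no overlap across that division. Of all tested genes, 9.63% were lower in the 6 with no overlap.

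**Figure D2:**
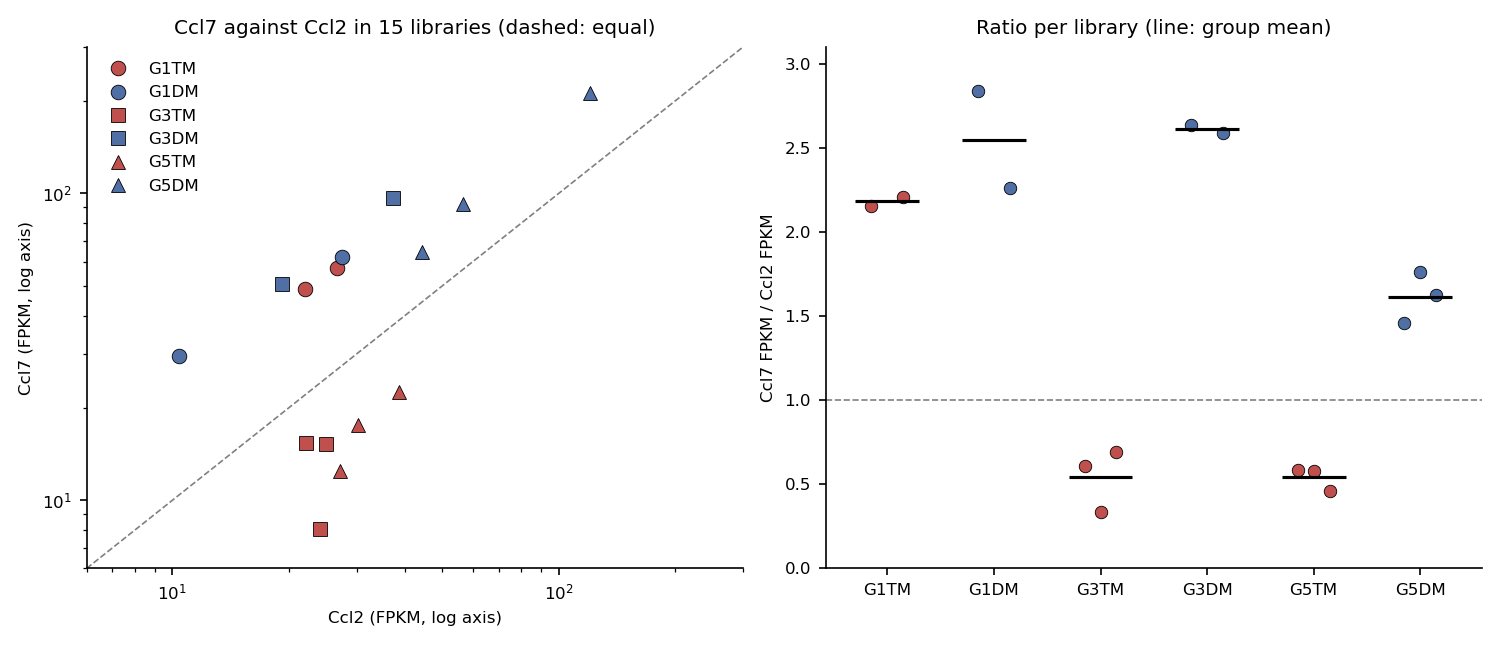
Ccl7 against Ccl2 in each of the 15 libraries, in FPKM on log axes, with the genotype and generation shown by colour and marker. The G3TM and G5TM libraries share the range of Ccl2 with the others but lie lower on the Ccl7 axis, at 8.06 to 22.6 FPKM.

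Cxcl5, a ligand of Cxcr2 that attracts neutrophils, was the one gene of the set that rose in TM cells. Cxcl5 (chromosome 5, 90759360 to 90761624, + strand) measured 8.71 and 5.54 FPKM in G1TM libraries, against 4.99 and 2.10 FPKM in G1DM libraries. In G3, Cxcl5 was 7.26, 2.19 and 6.33 FPKM in TM libraries, against 1.12 and 0.806 FPKM in DM libraries. In G5, Cxcl5 was 7.63, 5.21 and 5.14 FPKM in TM libraries, against 0.565, 4.76 and 1.03 FPKM in DM libraries. In each generation every TM library lay above every DM library, by a small margin in G5, where DM replicate 2 came close. The difference was 0.89 ± 0.56 in G1 (SE, adjusted p = 0.604), 1.56 ± 0.51 in G3 (SE, adjusted p = 0.0327) and 1.39 ± 0.46 in G5 (SE, adjusted p = 0.0191). Both calls were near the threshold. In G3 the adjusted p was 0.0989 without G3DM replicate 1, 0.176 without G3DM replicate 2, 0.082 without G3TM replicate 1 and 0.0998 without G3TM replicate 3. In G5 it was 0.0733 without G5DM replicate 1, 0.0717 without G5DM replicate 3 and 0.0702 without G5TM replicate 1. The interaction was not called in G3 (0.68 ± 0.76, SE, adjusted p = 0.693) or in G5 (0.50 ± 0.72, SE, adjusted p = 0.624).

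Cxcl1, the other Cxcr2 ligand of the set, was barely expressed. Cxcl1 (chromosome 5, 90891241 to 90893115, + strand) lay at 0.145 to 1.06 FPKM in TM libraries and 0.481 to 1.55 FPKM in DM libraries, from 4 to 68 recovered reads. The genotypes overlapped in each generation. The difference was −0.12 ± 0.31 in G1, −0.19 ± 0.28 in G3 and 0.10 ± 0.25 in G5 (SE), with adjusted p of 0.97, 0.636 and 0.745. The 95% interval in G5 was −0.44 to 0.64 on the log2(FPKM + 1) scale, which compresses differences at such low levels.

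Cxcl12, the ligand of Cxcr4 and Ackr3 that stromal cells produce constantly, was expressed in every library and was not called in the model of all 6 groups. Cxcl12 (chromosome 6, 117168535 to 117181367, + strand) measured 28.3 and 32.7 FPKM in G1TM libraries, against 41.8 and 14.9 FPKM in G1DM libraries. In G3, Cxcl12 was 29.6, 23.7 and 15.6 FPKM in TM libraries, against 38.6 and 31.6 FPKM in DM libraries. In G5, Cxcl12 was 21.8, 23.4 and 20.4 FPKM in TM libraries, against 4.47, 20.9 and 33.9 FPKM in DM libraries. The DM libraries of G1 and of G5 spread widely among themselves, which left broad intervals. In G5 the difference was 0.50 ± 0.53 (SE, adjusted p = 0.431), with a 95% interval of −0.65 to 1.66. In a fit of the G5TM and G1TM libraries alone, the log2 difference of Cxcl12 was −0.46 ± 0.16 (SE) and passed, with an adjusted p of 0.046 from limma.

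Lif, a cytokine of the Il6 family that signals through Lifr and Il6st, was low throughout and lower in TM cells of G3. Lif (chromosome 11, 4257557 to 4272514, + strand) measured 0.710 and 1.69 FPKM in G1TM libraries, against 1.92 and 3.21 FPKM in G1DM libraries. In G3, Lif was 1.94, 1.47 and 2.27 FPKM in TM libraries, against 4.44 and 3.46 FPKM in DM libraries. In G5, Lif was 1.38, 0.925 and 2.29 FPKM in TM libraries, against 2.94, 2.42 and 1.89 FPKM in DM libraries. The genotypes did not overlap in G1 or G3, and 1 G5TM library passed the lowest G5DM library. The difference was −0.71 ± 0.29 in G1 (SE, adjusted p = 0.313), −0.78 ± 0.27 in G3 (SE, adjusted p = 0.0406) and −0.46 ± 0.24 in G5 (SE, adjusted p = 0.115). The G3 call was lost in 12 of 21 alternatives. The adjusted p was 0.224 and 0.106 without G3DM replicates 1 and 2, and 0.0548, 0.124 and 0.0558 without G3TM replicates 1, 2 and 3. It was 0.052 without G5DM replicate 2 and 0.0529 without G5TM replicate 1. Processing also ended the call, with adjusted p of 0.0666 with a pseudocount of 0.1, 0.107 with no filter, 0.0877 with quantile normalization, 0.0527 with voom and 0.0575 with a replicate block. In G5 the difference passed without G5TM replicate 3 (adjusted p = 0.0412).

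Csf1, the growth factor of macrophages and their precursors, was the most strongly expressed of the 10 genes by median FPKM. Csf1 (chromosome 3, 107741048 to 107760469, − strand) measured 66.5 and 78.7 FPKM in G1TM libraries, against 53.9 and 64.5 FPKM in G1DM libraries. In G3, Csf1 was 70.3, 41.2 and 68.4 FPKM in TM libraries, against 102 and 107 FPKM in DM libraries. In G5, Csf1 was 89.5, 50.9 and 81.7 FPKM in TM libraries, against 58.3, 89.7 and 53.01 FPKM in DM libraries. TM libraries lay above DM libraries in G1, below them in G3 and among them in G5. The difference was 0.29 ± 0.33 in G1 (SE, adjusted p = 0.849), −0.83 ± 0.30 in G3 (SE, adjusted p = 0.0524) and 0.14 ± 0.27 in G5 (SE, adjusted p = 0.676). In G3 it passed without G3TM replicate 1 (adjusted p = 0.0354), G5DM replicate 1 (0.0446), G5DM replicate 2 (0.0424) or G5TM replicate 2 (0.0367). It also passed with voom (0.0497), with a filter at 5 FPKM (0.0452) and with quantile normalization (−1.22, adjusted p = 0.0101). Voom thus called 4 of the 9 genes in G3 as well, with Csf1 in place of Lif. In G3 against G1 in TM, Csf1 passed with quantile normalization alone (−0.95, adjusted p = 0.0254).

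Il6, the best known cytokine of the senescence secretome, was close to undetected in these cultures. Il6 (chromosome 5, 30013114 to 30019981, + strand) lay at 0 to 0.194 FPKM in TM libraries and 0.0853 to 0.856 FPKM in DM libraries. These values rest on 0 to 14 recovered reads in TM libraries and 4 to 45 in DM libraries. G3TM replicate 1 held 0 reads, which allows up to 0.0470 FPKM at 3 reads, for counting error alone. The highest value, 0.856 FPKM, was that of G5DM replicate 2, which also held the highest Ccl2, Ccl7, Icam1 and Vcam1 of all libraries.

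Icam1, the ligand of the leukocyte integrins LFA-1 and Mac-1, fell in TM cells in G3 and G5 under every alternative tried. Icam1 (chromosome 9, 21015985 to 21028817, + strand), whose promoter window is printed above, measured 0.604 and 0.509 FPKM in G1TM libraries, against 3.57 and 1.71 FPKM in G1DM libraries. In G3, Icam1 was 0.689, 0.732 and 1.90 FPKM in TM libraries, against 6.48 and 7.47 FPKM in DM libraries. In G5, Icam1 was 0.660, 0.506 and 1.30 FPKM in TM libraries, against 3.32, 11.5 and 3.93 FPKM in DM libraries. Every TM library lay below every DM library of its generation, in G1 too. The difference was −1.18 ± 0.44 in G1 (SE, unadjusted p = 0.0186, adjusted p = 0.249). It was −1.96 ± 0.40 in G3 (SE, adjusted p = 0.00312) and −1.84 ± 0.36 in G5 (SE, adjusted p = 0.000962). Over 22 alternatives the adjusted p lay between 0.000584 and 0.0413 in G3 and between 0.000306 and 0.00818 in G5. The interaction was not called in G3 (−0.79 ± 0.59, SE, adjusted p = 0.515) or G5 (−0.67 ± 0.57, SE, adjusted p = 0.393), so a difference between the generations was not shown. Icam1 reached 1 FPKM in 9 of 15 libraries, and 40 to 126 reads stood behind the TM values.

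Vcam1, the ligand of the integrin VLA-4, lay higher in TM than in DM libraries in G1 and fell in TM cells in G5. Vcam1 (chromosome 3, 116109949 to 116129688, − strand) measured 20.47 and 16.6 FPKM in G1TM libraries, against 13.5 and 10.2 FPKM in G1DM libraries. In G3, Vcam1 was 10.3, 5.65 and 6.84 FPKM in TM libraries, against 12.3 and 16.6 FPKM in DM libraries. In G5, Vcam1 was 10.7, 8.38 and 5.93 FPKM in TM libraries, against 10.6, 22.4 and 17.1 FPKM in DM libraries. The genotypes were separated in G1 and G3, in opposite directions, and overlapped slightly in G5. The difference was 0.61 ± 0.35 in G1 (SE, adjusted p = 0.542), −0.87 ± 0.32 in G3 (SE, adjusted p = 0.0506) and −0.89 ± 0.28 in G5 (SE, adjusted p = 0.0157). The G5 call was lost without G5DM replicate 2 (adjusted p = 0.0823) or G5TM replicate 3 (adjusted p = 0.0736). In G3 the difference passed without G3TM replicate 1 (adjusted p = 0.0192), G5DM replicate 1 (0.0226), G5DM replicate 2 (0.0409) or G5TM replicate 3 (0.0471), with a pseudocount of 0.1 (0.049) and with a filter at 5 FPKM (0.039). The interaction was −1.50 ± 0.45 in G5 (SE, adjusted p = 0.0349) and −1.48 ± 0.47 in G3 (SE, adjusted p = 0.123). The G5 interaction was lost in 9 of 22 alternatives, among them the removal of any of 7 single libraries: any G1 library, G5DM replicate 2 or 3, or G5TM replicate 3 (adjusted p 0.0679 to 0.143). The G3 interaction passed without G3TM replicate 1 (adjusted p = 0.0439) or G5DM replicate 1 (adjusted p = 0.0492).

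**Figure D3:**
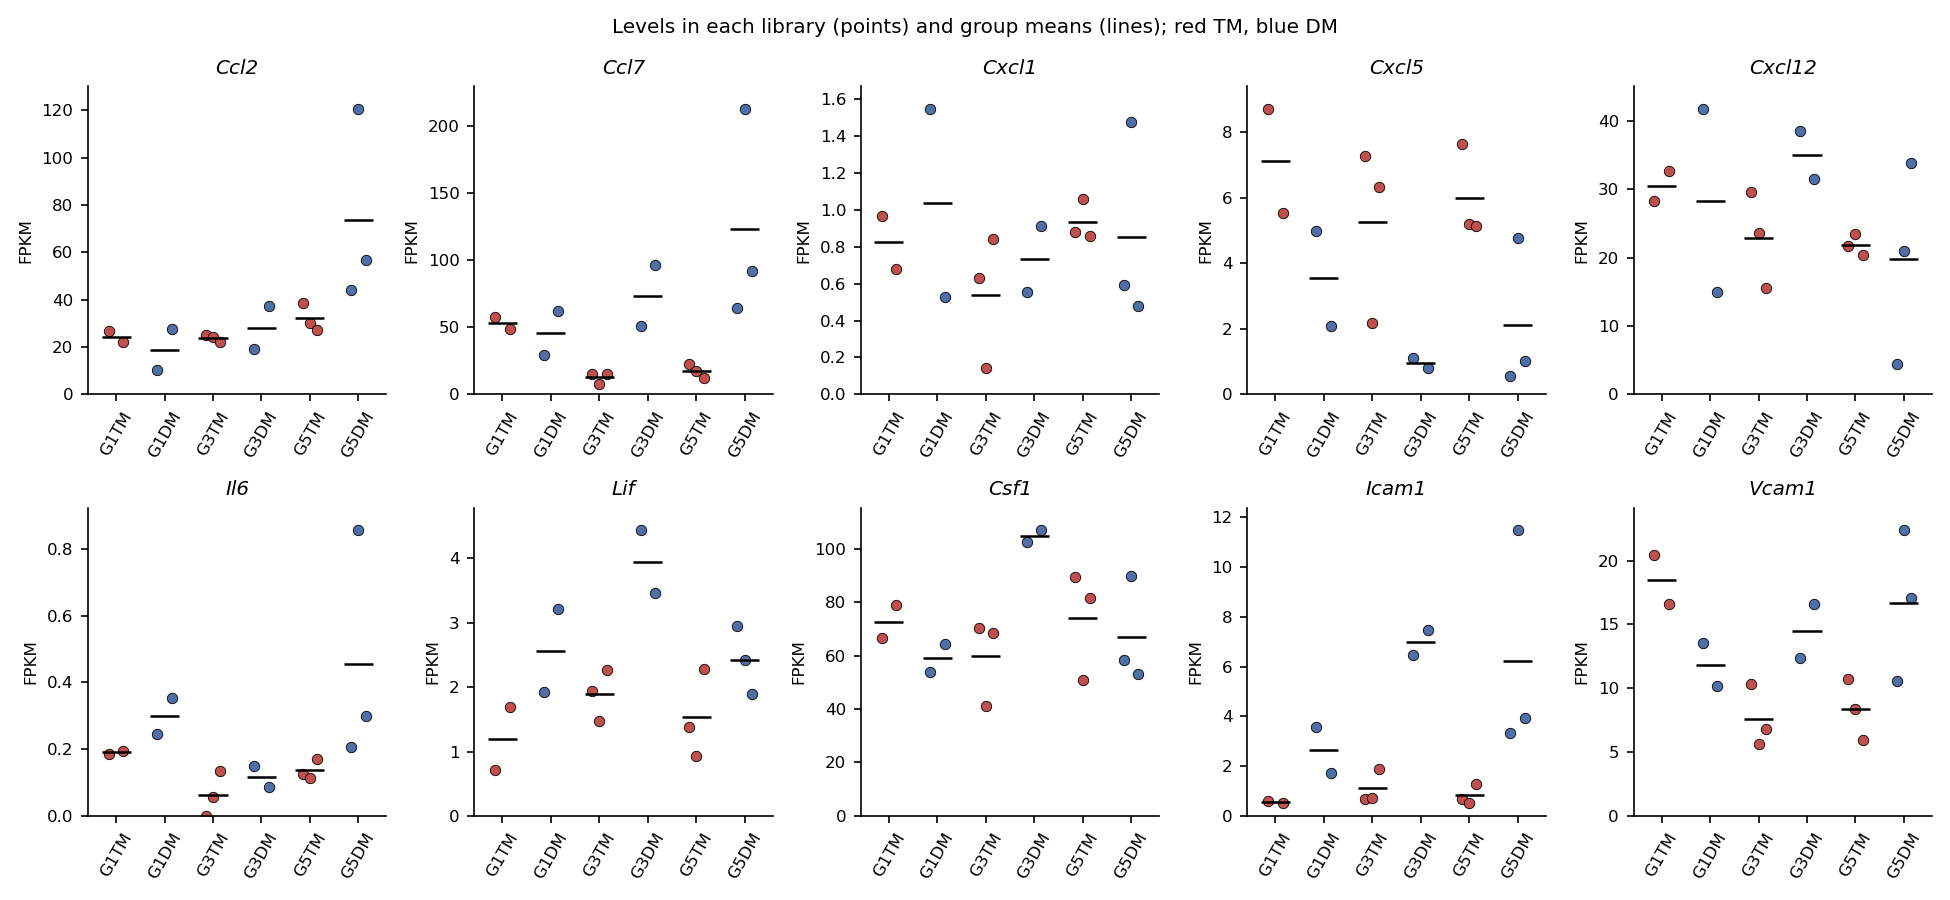
FPKM of each of the 10 genes in every library on linear axes that start at 0, by generation with TM left of DM, with the group mean as a line. Icam1 lies lower in TM in each generation, Ccl7 in G3 and G5, and Il6 stays below 1 FPKM in all libraries.

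Across generations of wild-type p53 cells, 0 of the 9 genes were called. G3 against G1 in DM gave 0 (2 at unadjusted p under 0.05, limma), against 0.214% of all genes. G5 against G1 in DM gave 0 (3 at unadjusted p under 0.05), against 0.059% of all genes, and G5 against G3 in DM gave 0 (2 at unadjusted p under 0.05), against 4.98%. With voom all 3 counts were 0. The largest difference was that of Ccl2, with 44.2, 121 and 56.6 FPKM in G5DM libraries and 10.4 and 27.5 FPKM in G1DM libraries. All G5DM libraries lay above both G1DM libraries. The difference was 1.92 ± 0.43 (SE, unadjusted p = 0.000565, adjusted p = 0.177), and it passed without G5DM replicate 1 (adjusted p = 0.035). Against G3DM, Ccl2 in G5DM differed by 1.29 ± 0.43 (SE, adjusted p = 0.0918), and that too passed without G5DM replicate 1 (adjusted p = 0.0198). Ccl7 differed by 1.32 ± 0.48 between G5DM and G1DM (SE, adjusted p = 0.711), and Icam1 by 0.87 ± 0.40 (SE, adjusted p = 0.979). Icam1 was 6.48 and 7.47 FPKM in G3DM libraries, against 3.57 and 1.71 FPKM in G1DM libraries, a difference of 1.18 ± 0.44 (SE, adjusted p = 0.156).

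Markers of macrophages were higher in G5DM than in G1DM by their sum, while 0 of 12 tested were called there by limma (2 at unadjusted p under 0.05) or by voom. Over all genes, limma called 0.059% there. The summed FPKM of 16 macrophage and leukocyte genes was 63.8, 79.6 and 91.9 in G5DM libraries and 26.4 to 30.8 in G3DM libraries, against 9.86 and 23.4 in G1DM libraries. In TM it was 34.0 to 139 in G5 and 8.66 to 467 in G3, against 9.34 and 26.1 in G1. The pan-leukocyte gene Ptprc stayed at or below 0.108 FPKM in every library, while Lyz2 reached 233 FPKM and C1qa 64.5 FPKM in at least one. Every G5DM library lay above both G1DM libraries in this sum and in Ccl2. In G1DM and in G3DM the library with the higher sum had the higher Ccl2, while in G1TM and G5TM the order was the opposite. In G1TM, sums of 9.34 and 26.1 went with Ccl2 of 26.6 and 22.1 FPKM. In G5TM, sums of 34.0, 40.1 and 139 went with Ccl2 of 38.7, 30.3 and 27.1 FPKM. G3TM replicate 3, with the highest sum, had the lowest Ccl2 of its group, and G5DM replicate 2, with the highest Ccl2, did not have the highest sum of its group. The part of these cells in the level of Ccl2 was not tested. In bulk RNA, fewer cells of a type and less RNA per cell cannot be told apart. Endothelial markers, of interest because endothelium makes Icam1 and Vcam1, summed to 2.40 to 5.06 FPKM in TM libraries and 3.69 to 9.90 FPKM in DM libraries over 10 genes, and Tie1 and Cldn5 were each at 0 in 10 libraries. In G3, where Icam1 fell, the endothelial sum was 3.18 to 4.66 FPKM in TM libraries and 9.13 to 9.90 FPKM in DM libraries, and its part in that result was not tested. In G5, where both fell, it was 3.34 to 5.06 FPKM in TM libraries and 4.75 to 5.39 FPKM in DM libraries.

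Across generations of TM cells, Ccl7 and Vcam1 fell in G3 and in G5 relative to G1. In G3 against G1, 2 of 9 genes were called, both lower, against 46.8% of all genes (21.6% lower). In G5 against G1, 2 of 9 were called, both lower, against 49.5% of all genes (23.5% lower). Both comparisons share the G1TM libraries, so they are not independent. In G3 against G1, sex changed together with generation, and their parts cannot be told apart. Ccl7 was 15.2, 8.06 and 15.4 FPKM in G3TM libraries and 57.4 and 48.8 FPKM in G1TM libraries, a difference of −2.01 ± 0.48 (SE, adjusted p = 0.00584). In G5TM it differed from G1TM by −1.58 ± 0.48 (SE, adjusted p = 0.0164). Vcam1 differed from G1TM by −1.21 ± 0.32 in G3TM (SE, adjusted p = 0.00868) and by −1.09 ± 0.32 in G5TM (SE, adjusted p = 0.0129). Without G1TM replicate 1 these calls were lost, with adjusted p of 0.0617 and 0.105 for Ccl7 and of 0.0899 and 0.11 for Vcam1 in G3TM and G5TM in that order. Ccl7 in G5TM was also lost without G1TM replicate 2 (adjusted p = 0.0537) or G5TM replicate 3 (adjusted p = 0.0568). In G5 against G3 in TM, 0 of the 9 genes were called by limma, with 0 at unadjusted p under 0.05 and 0 by voom, against 0.0295% of all genes. Within TM, Icam1 was low in all generations, at 0.39 ± 0.40 in G3 and 0.20 ± 0.40 in G5 relative to G1 (log2 difference, SE). Markers of other cell types differed over the same generations. Of 5 tested epithelial genes, 4 were higher in G3TM and 3 in G5TM than in G1TM, against 25.2% and 26% of all genes. Sums over 8 epithelial genes were 23.7 to 79.5 FPKM in G3TM and 21.7 to 54.0 FPKM in G5TM, against 6.19 and 12.8 FPKM in G1TM. Krt8 and Krt18 reached 29.5 and 41.2 FPKM, while Epcam, Cdh1 and Krt5 stayed at or below 0.645 FPKM in every library. Of 12 fibroblast genes, 4 were lower in G3TM and 8 in G5TM than in G1TM, against 21.6% and 23.5% of all genes. Their part in these results was not tested.

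**Figure D4:**
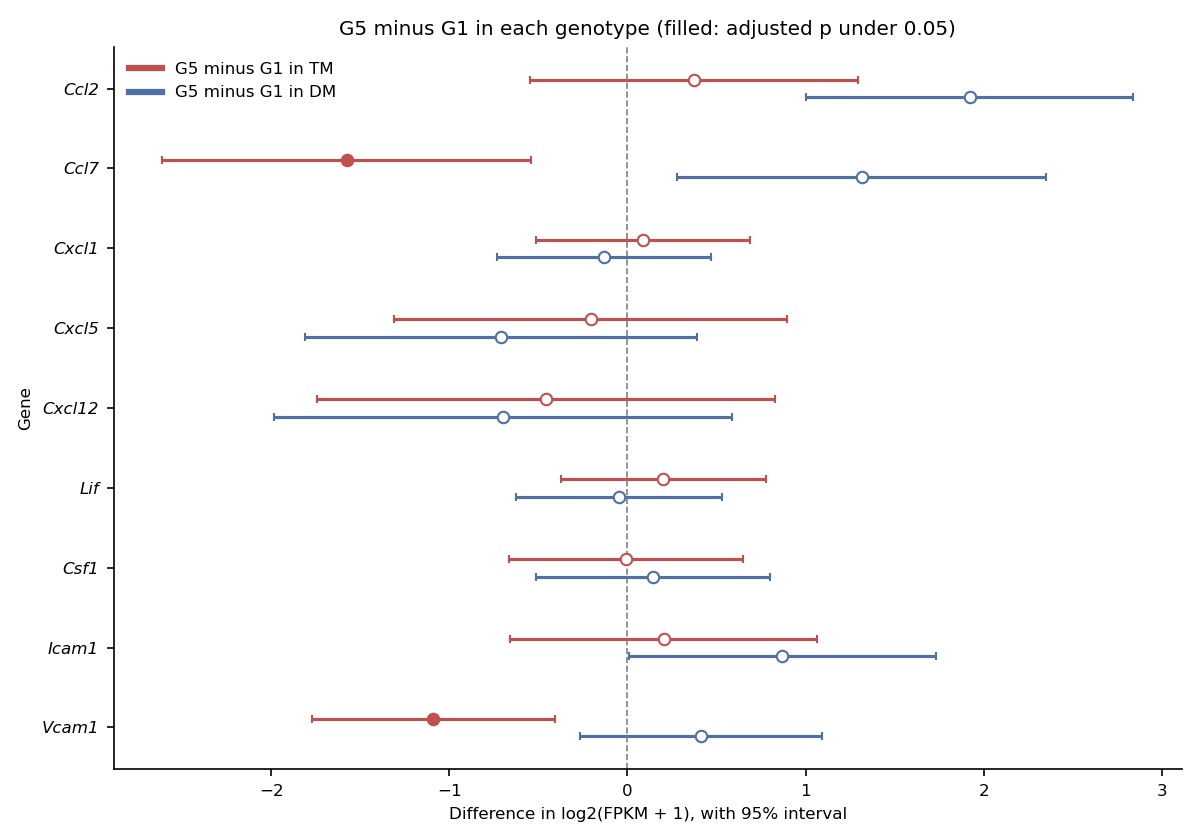
G5 minus G1 difference of each tested gene on the log2(FPKM + 1) scale (horizontal axis) in TM and in DM cells, with 95% confidence intervals. Ccl7 and Vcam1 lie below 0 in TM (−1.58 and −1.09) and above 0 in DM (1.32 and 0.41), and Ccl2 lies highest in DM at 1.92.

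Partners on the receiving side were partly absent from the cultures. Ccr2, the receptor of Ccl2 and Ccl7, lay at 0 to 0.0100 FPKM in TM libraries and 0 to 0.0137 FPKM in DM libraries. Cxcr2, the receptor of Cxcl1 and Cxcl5, lay at 0 to 0.0223 FPKM in TM libraries and 0 to 0.0171 FPKM in DM libraries. Both are leukocyte receptors and did not pass the filter. The Cxcl12 receptor Cxcr4 lay at 0.0911 to 2.00 FPKM in TM libraries and 0.118 to 0.582 FPKM in DM libraries. Ackr3, the scavenging Cxcl12 receptor, was plainly expressed and was lower in G3TM, with 19.6, 11.4 and 7.41 FPKM, than in G3DM, with 35.4 and 28.5 FPKM. That difference was −1.34 ± 0.34 (SE, adjusted p = 0.0103), and it was lost without G3DM replicate 1 (adjusted p = 0.0828) or replicate 2 (adjusted p = 0.0509). In G1 it was −1.23 ± 0.38 (SE, adjusted p = 0.143) and in G5 −0.11 ± 0.31 (SE, adjusted p = 0.763).

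The integrin that binds Vcam1 fell together with its ligand in G5. Itga4, the alpha subunit of VLA-4, was 0.0964, 0.122 and 0.183 FPKM in G5TM libraries, against 3.60, 5.99 and 7.65 FPKM in G5DM libraries. That was a difference of −2.53 ± 0.29 (SE, adjusted p = 3.26e-05). In G1, Itga4 was 3.51 and 3.57 FPKM in TM libraries, against 0.937 and 3.93 FPKM in DM libraries. Every library of G3TM and G5TM lay between 0.0964 and 0.264 FPKM, and every other library between 0.937 and 7.65 FPKM. Of all tested genes, 9.63% were likewise lower in the G3TM and G5TM libraries with no overlap. Itgb1, the beta subunit of VLA-4, averaged 172 ± 14 FPKM in G5TM and 464 ± 97 FPKM in G5DM (SD, n = 3 each), a difference of −1.41 ± 0.28 (SE, adjusted p = 0.00114). Itgb7, the alternative partner of Itga4, rose in G5TM by 1.82 ± 0.25 (SE, adjusted p = 0.000109). These 3 calls held under all 22 alternatives. In G3 the differences of Itga4 (−0.93 ± 0.32, SE, adjusted p = 0.0405) and Itgb1 (−1.03 ± 0.31, SE, adjusted p = 0.0244) were called but lost in 14 and 7 of 22 alternatives. For Itga4 these included the removal of either G1TM library, any G3 library, G5DM replicate 2 or any G5TM library, and for Itgb1 that of either G3DM library or G3TM replicate 2 or 3. Without G3DM replicate 2 their adjusted p was 0.194 and 0.138 in that order, and the range over alternatives was 0.00545 to 0.194 for Itga4 and 0.00278 to 0.138 for Itgb1. The Icam1 receptor subunits Itgal and Itgb2 are leukocyte genes, at 0.0188 to 1.24 and 0.243 to 4.85 FPKM in TM libraries and at 0 to 0.143 and 0.112 to 0.933 FPKM in DM libraries, with G3TM replicate 3 highest for both.

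Of 3 receptor chains of the Il6 family, 1 passed the test in G5, where 58.7% of all genes were called. Over the 11 tested receptors and integrin partners, 1 rose, 4 fell and 6 did not pass in G5TM against G5DM. Of all genes, 30.3% were called higher and 28.4% lower there. Il6st, the shared signalling chain gp130, fell in G5TM to 18.3 ± 4.9 FPKM, against 37 ± 11 FPKM in G5DM (SD, n = 3 each), a difference of −0.96 ± 0.34 (SE, adjusted p = 0.0271). The call was lost without G5DM replicate 2 (adjusted p = 0.103), G5DM replicate 3 (0.089), G5TM replicate 1 (0.109) or G5TM replicate 3 (0.0564). Il6ra, the Il6-binding chain, differed by −0.37 ± 0.18 (SE, adjusted p = 0.0941), and Lifr, the Lif-binding chain, by −0.50 ± 0.23 (SE, adjusted p = 0.0823). Without G5DM replicate 1 both passed (adjusted p = 0.0254 for Il6ra and 0.00131 for Lifr). Csf1r, the Csf1 receptor of macrophages, was 0.374, 3.27 and 12.5 FPKM in G3TM libraries, against 0.566 and 0.594 FPKM in G3DM libraries. Its spread among G3TM libraries was wide, and the summed macrophage markers were 8.66, 86.9 and 467 FPKM in the same 3 libraries. The difference of 1.44 ± 0.70 (SE, adjusted p = 0.135) passed without G3TM replicate 1 (adjusted p = 0.00788).

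More genes of the NF-κB and STAT pathways rose than fell in G5TM. Of 31 tested genes for pathway parts and their transcription factors, 18 rose, 6 fell and 7 did not pass in G5TM against G5DM, with a median log2 difference of 0.65 against 0.02 over all genes. Over all genes tested, 58.7% were called there (30.3% higher and 28.4% lower). Cebpb, a driver of secretory genes in senescence, averaged 74.5 ± 16 FPKM in G5TM and 11.6 ± 5.6 FPKM in G5DM (SD, n = 3 each), a difference of 2.66 ± 0.30 (SE, adjusted p = 2.83e-05). Fosl1, an AP-1 subunit, rose by 1.96 ± 0.49 (SE, adjusted p = 0.00421). Socs3, the feedback inhibitor of gp130 signalling, rose by 1.92 ± 0.34 (SE, adjusted p = 0.00056). All of these span the division of the libraries, and the 3 calls held under all 22 alternatives. In G1, 0 of the 31 were called by limma (1 at unadjusted p under 0.05) and 0 by voom. Limma called only 1.17% of all genes there, so a count of 0 does not set the list apart. Cebpb differed in G1 by 0.10 ± 0.36 (SE, adjusted p = 0.983).

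Among the other chemokines, 13 of 26 passed the filter, and in G5TM 4 rose, 3 fell and 6 did not pass, a share called near the 58.7% of all genes. Ccl8, the monocyte chemoattractant MCP-2, averaged 0.547 ± 0.38 FPKM in G5TM and 9.31 ± 11 FPKM in G5DM (SD, n = 3 each), a difference of −2.24 ± 0.50 (SE, adjusted p = 0.00231). Ccl11, the eosinophil attractant eotaxin, differed by −2.03 ± 0.59 (SE, adjusted p = 0.0101), a call lost in a fit of the 2 groups alone (adjusted p = 0.0526). Cx3cl1, a membrane-bound chemokine, rose by 2.15 ± 0.30 (SE, adjusted p = 0.000124). Ccl8 reached at most 0.959 FPKM and Ccl11 at most 0.435 FPKM in TM libraries, so both passed the filter through DM libraries alone.

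Of 10 other tested cytokines, 4 rose, 3 fell and 3 did not pass in G5TM against G5DM, against 30.3% higher and 28.4% lower of all genes. Mif, which encodes macrophage migration inhibitory factor, averaged 1068 ± 178 FPKM in G5TM and 346 ± 151 FPKM in G5DM (SD, n = 3 each). That was a difference of 1.70 ± 0.36 (SE, adjusted p = 0.00156). Kitl, the ligand of Kit, differed by −1.33 ± 0.34 (SE, adjusted p = 0.00503). Il11, a relative of Il6 and Lif, rose by 1.31 ± 0.34 (SE, adjusted p = 0.00565).

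Adhesion genes other than Icam1 and Vcam1 mostly fell. Of 10 tested, 1 rose, 6 fell and 3 did not pass in G5TM, with a median of −0.96 on the log2 scale against 0.02 over all genes, of which 30.3% were called higher and 28.4% lower. Cdh11, the cadherin of mesenchymal cells, averaged 18.8 ± 0.95 FPKM in G5TM and 86.1 ± 24 FPKM in G5DM (SD, n = 3 each), a difference of −2.10 ± 0.24 (SE, adjusted p = 3.58e-05). Ncam1, a homophilic adhesion molecule, differed by −1.66 ± 0.22 (SE, adjusted p = 9.1e-05), and the junctional Jam2 by −1.51 ± 0.21 (SE, adjusted p = 0.000131). In G1, 0 of the 10 were called by limma (2 at unadjusted p under 0.05) and 0 by voom, while limma called only 1.17% of all genes there.

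Proteases, inhibitors and growth factors of the secretome gave the only limma calls in G1 among these 6 lists, while voom also called Ackr4 of the receptor list. Of 33 tested genes, 2 fell in G1TM and 0 rose, while 1.17% of all genes were called there in either direction. Serpine2, an inhibitor of serine proteases, averaged 3.84 ± 1.4 FPKM in G1TM and 23.8 ± 11 FPKM in G1DM (SD, n = 2 each), a difference of −2.32 ± 0.31 (SE, adjusted p = 0.00269). The adjusted p was 0.0694 without G1TM replicate 2 and 0.0898 in a fit of the 2 groups alone. Mmp2, a gelatinase, averaged 43.0 ± 1.4 FPKM in G1TM and 155 ± 81 FPKM in G1DM (SD, n = 2 each), a difference of −1.72 ± 0.31 (SE, adjusted p = 0.0171). Its call was lost without G1DM replicate 1 (adjusted p = 0.146), G1TM replicate 1 (0.170) or G1TM replicate 2 (0.193), in a fit of the 2 groups alone (0.151) and in a fit of the 9 libraries outside G3TM and G5TM (0.0855). In G5TM, 3 of the 33 rose, 12 fell and 18 did not pass, while 30.3% of all genes were called higher and 28.4% lower. Falls were those of Serpine2 (−2.99 ± 0.26, adjusted p = 5.27e-06), Inhba (−2.23 ± 0.53, adjusted p = 0.00338) and Spp1 (−2.05 ± 0.48, adjusted p = 0.00323), among others. None of the 6 lists held a called gene in G5 against G1 in DM or in G5 against G3 in TM by limma or voom. Over all genes, limma called 0.059% and 0.0295% in the same order. At unadjusted p under 0.05 each list held 0 to 4 genes in the first of these comparisons and 0 to 1 in the second.

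The 9 tested genes did not vary as one block. Over the 15 libraries, Pearson r of log2(FPKM + 1) was 0.86 between Vcam1 and Ccl7, 0.70 between Icam1 and Ccl7, and 0.59 between the neighbours Ccl7 and Ccl2. Cxcl5 ran against Lif (r = −0.66) and against Icam1 (r = −0.57). These values describe libraries that share groups and the division above, and carry no test. The gene most like Ccl7 was Slc39a8 (r = 0.960), followed by Spp1 (0.939). Icam1 was closest to Pm20d1 (r = 0.946), Vcam1 to Tgfbr3 (0.943) and Lif to Dysf (0.951). Ccl2 was closest to Hist1h1a (r = 0.837), with Ccl8 in its first 3 (0.823). Cxcl12 lay closest to the homeobox gene Hoxa7 (r = 0.898), with Hoxc8 and Hoxc6 next. Cxcl5 was closest to Gatc (r = 0.862), Csf1 to the pseudogene Gm38158 (0.818) and Cxcl1 to Emb (0.794).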

How the data were processed

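Polyadenylated RNA of 15 fibroblast libraries in 6 groups was analysed. The authors deposited one table of FPKM for 54495 genes. Per the submitters' processing notes, the tools were HISAT2 2.0.5, featureCounts 1.5.0-p3, DESeq2 1.20.0, CASAVA 1.8 and fastp, with no role given. The genome build is not given in the sources used here. For 98.2% of identifiers the listed coordinates were those of GENCODE vM21 (GRCm38). Multiplied by gene length, 100% of FPKM values were integer multiples of a library's own unit within 0.05, which gave back 17448588 to 29571111 reads per library and 19758 to 25789 genes above 0. Few reads stood behind Il6 and Cxcl1, and a floor of 3 reads covers counting error only.

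From the deposited FPKM, log2(FPKM + 1) was computed, and genes with at least 1 FPKM in at least 2 libraries were fitted with limma 3.58.1 (R 4.3.3) with 6 group means and an intensity trend. P-values were two-sided and adjusted by the Benjamini-Hochberg method. Contrasts were TM against DM in each generation, generations within each genotype, and interactions with G1. The fit was tested on simulated data. Alternatives were a pseudocount of 0.1, no filter, a filter at 5 FPKM, quantile normalization, voom on recovered reads, a fit of the compared groups, a replicate block, each library left out, and, chosen after seeing the data, a fit of the 9 libraries outside G3TM and G5TM. Named genes were the members, their receptors, up to 3 called genes of largest difference per list, and the most alike genes of each member. Members and lists were chosen with earlier results of these data known. From 0 to 3.50% of the 31-base words of a member's transcripts also occur in other genes, with Icam1 highest. Tables, motif searches and plots used Python 3.11.15 with pandas 2.3.3, numpy 2.4.6, matplotlib 3.10.9 and scipy 1.17.1.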

Additional observations from a re-analysis of the deposited data

Results flagged for a closer look

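For 2 of the 9 tested genes the difference between the genotypes was itself tested and differed between G5 and G1, a share near the 19.8% of all genes. For Ccl7, TM minus DM was lower in G5 than in G1 by an interaction of −2.89 log2 units (adjusted p = 0.0156, limma). All 3 G5TM libraries lay below all 3 G5DM libraries, while the genotypes overlapped in G1. For Vcam1 the interaction was −1.50 log2 units (adjusted p = 0.0349, limma). Both G1TM libraries lay above both G1DM libraries, and the G5 groups overlapped slightly. The Ccl7 call was lost in 3 of 22 alternatives and the Vcam1 call in 9 of 22. Both values span the division between the 6 libraries of G3TM and G5TM and the other 9, and cannot be told apart from it.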

How the results depend on the processing

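No called difference of a named gene reversed its direction under any alternative, while 19 differences that did not pass changed sign under at least one, all 19 still without passing. With quantile normalization these were Csf1 in TM against DM in G5 (−0.53) and Ccl2 in G5 against G1 in TM (−0.072). With single libraries left out, TM minus DM in G1 lay at −0.17 to 1.15 for Ccl2, −0.23 to 0.83 for Ccl7, −0.49 to 0.25 for Cxcl1 and −0.45 to 0.98 for Cxcl12. In G3 it lay at −0.63 to 0.29 for Ccl2 and −0.34 to 0.0064 for Cxcl1. In G5 it lay at −0.016 to 0.39 for Csf1, −0.041 to 0.33 for Cxcl1, −0.28 to 1.06 for Cxcl12 and −0.28 to 0.078 for Ackr3. G5 minus G1 in DM lay at −0.31 to 0.22 for Lif, −0.083 to 0.29 for Csf1, −0.50 to 0.24 for Cxcl1 and −1.41 to 0.082 for Cxcl12. In TM it lay at −0.13 to 0.53 for Lif, −0.16 to 0.24 for Csf1, −0.026 to 0.20 for Cxcl1 and −0.49 to 0.077 for Cxcl5. The number of called genes among the 10 moved in some comparisons, and the cause was not tested. For TM against DM in G3 (4 in the model reported) it was 2 with no filter, 2 with a replicate block and 1 to 6 with single libraries left out. In G5 (5) it was 3 with no filter and 3 to 5 with single libraries left out. With single libraries left out it was 0 to 1 for G5 against G1 and for G5 against G3 in DM (0 each), 0 to 2 for G3 against G1 in TM (2), where quantile normalization gave 3, and 0 to 2 for G5 against G1 in TM (2), where no filter gave 1 and only the groups compared gave 3. The G3 interaction (0) gave 1 with a filter at 5 FPKM, 1 with only the groups compared and 0 to 2 with single libraries left out. The G5 interaction (2) gave 0 with no filter, 1 with a replicate block and 0 to 3 with single libraries left out. Without any filter, Ccl2 in G5 (adjusted p = 0.0742) and Cxcl5 in G3 and G5 (0.102 and 0.0582) were lost, as were the G5 interactions of Ccl7 (0.0519) and Vcam1 (0.0921). The fit of the 9 libraries outside G3TM and G5TM, chosen after seeing the data, called 0 of the 10 genes and 63 genes in all for TM against DM in G1. Where groups of 2 lost a library, the lone sample was assumed to vary like the other groups.

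Over all genes, counts of calls ranged from 21 to 408 for TM against DM in G1 (159), 1538 to 5335 in G3 (4336), 0 to 1533 for G3 against G1 in DM (29), 2 to 117 for G5 against G1 (8) and 0 to 3111 for G5 against G3 in DM (676). They ranged from 1774 to 7392 for G3 against G1 in TM (6350), 2898 to 7684 for G5 against G1 in TM (6718), 2 to 15 for G5 against G3 in TM (4), 80 to 1089 for the G3 interaction (328) and 433 to 5762 for the G5 interaction (2683). More genes were called lower than higher in TM with quantile normalization in G3 (2100 higher and 2215 lower, against 2446 and 1890 in the model reported) and in G5 (3911 and 3925, against 4114 and 3848), and with no filter in G5 (3936 and 4832). The same turn occurred with quantile normalization for G3 against G1 in TM (3029 and 3144, against 3415 and 2935) and G5 against G1 in TM (3202 and 3398, against 3527 and 3191). With quantile normalization the median over all genes was −0.018 in G3 and −0.0087 in G5. A filter at 5 FPKM moved the median of all genes in G5 to 0.21, from which the changes there should be read.

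The labels do not say whether replicate numbers pair the samples, and correlations could not settle it. Deviations of same-numbered G5 libraries correlated at 0.304, 0.319 and −0.018, those of G1 at 0.042 and those of G3 at −0.341 and −0.292. In groups of 2 the deviations mirror each other, so both G1 pairs gave the same value. G5TM replicates 1 and 2 correlated best with their own number among G5DM libraries, and G5TM replicate 3 did not. The fit with a replicate block called 3377 genes in G3 and 7539 in G5 for TM against DM. Depth limits Il6 (0 to 45 reads) and Cxcl1 (4 to 68 reads), for which small differences were not detectable.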

Other observations

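Macrophage markers differed between libraries of one group. Their summed FPKM was 8.66, 86.9 and 467 in the 3 G3TM libraries and 34.0, 40.1 and 139 in the 3 G5TM libraries, and Csf1r (0.374, 3.27 and 12.5 FPKM in G3TM) and Itgb2 (0.249, 1.18 and 4.85 FPKM in G3TM) had the same order there. Csf1, the growth factor of such cells, was 70.3, 41.2 and 68.4 FPKM in the same 3 libraries and had another order.

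Epithelial markers summed to 21.7 to 54.0 FPKM in G5TM libraries, against 5.21 to 6.29 FPKM in G5DM libraries, and their part in the differences of the 10 genes in G5 was not tested. In G3 they overlapped, with 23.7 to 79.5 FPKM in TM libraries and 38.98 to 53.9 FPKM in DM libraries. Of these markers, Epcam, Cdh1 and Krt5 stayed at or below 0.645 FPKM in every library.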
